A study of Mus musculus with 12 samples.

Results

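The nuclear genes of the mitochondrial respiratory chain and ATP synthase were followed in sorted mouse bone marrow cells of 4 genotypes. Members were taken by gene symbol: all symbols in the deposited table that start with Nduf, Sdha, Sdhb, Sdhc, Sdhd, Uqcr, Cox4, Cox5, Cox6, Cox7, Cox8 or Atp5, together with Cyc1, without symbols marked as pseudogenes by "-ps". The rule gave 94 of the 37187 genes in the table. By function, 40 belong to complex I, 6 to complex II, 9 to complex III, 20 to complex IV and 15 to complex V, with assembly factors counted under the complex they build. The remaining 4 only share a symbol prefix: Cox4nb is a gene of the endoplasmic reticulum membrane complex, Atp5s and Atp5sl are not subunits, and Atp5l2 is a pseudogene in RefSeq. Symbols are spelled as in the table, and Ndufa4 and Ndufa4l2 were placed with complex IV.

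The 4 groups had 3 libraries each: wild type (WT), Tet2 KO, Traf6 KO and the double knockout of Tet2 and Traf6 (dKO). TET2 is a dioxygenase that starts the removal of DNA methylation, and TRAF6 is an E3 ubiquitin ligase of innate immune signalling. All libraries came from bone marrow cells sorted as lineage-negative, CD117-positive and Sca-1-positive (LSK), the gate that holds blood stem cells and multipotent progenitors, and were made with a low-input full-length cDNA kit. The labels give neither strain, age nor sex, nor the promoter or Cre behind each deletion, nor whether libraries of one genotype were made from different mice. The p-values therefore rest on library-to-library spread alone, part of which may be technical.

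Complexes I, III and IV pass electrons from NADH and succinate to oxygen and pump protons across the inner mitochondrial membrane, complex II feeds electrons from succinate without pumping, and complex V (ATP synthase) lets the protons flow back to make ATP. Each complex except complex II mixes subunits encoded in the nucleus with subunits encoded by mitochondrial DNA, and the latter are not analysed here. Quiescent blood stem cells are known to lean on glycolysis, and their differentiation and proliferation come with more oxidative metabolism.

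Nuclear respiratory chain genes are known for shared promoter elements, the sites of NRF1, of ETS factors such as GABP, and of YY1. RefSeq promoter windows (GRCm38.p6, 250 bases before to 50 after a start) were at hand for 76 of the 94 members. The NRF1 core, the letters GCGCA, then any base, then GCGC, searched on both strands with overlapping matches counted, occurred in 23.2% of member windows and in 9.39% of the windows of tested genes. For AAGATGGC (YY1 core) the shares were 14.6% and 4.10%, for CCGGAAG (ETS core) 23.2% and 16.4%, and for CACGTG (E-box, the letters bound by MYC and related factors) 11% and 9.79%. Over all 32851 windows of the table the shares were 4.60%, 2.75%, 8.86% and 7.15%, in the order NRF1, YY1, ETS and E-box.

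To show these elements in a member of each complex, the stretches below run 5′ to 3′ on the gene's strand and hold only bases outside annotated gene bodies (GENCODE M21, GRCm38), with the matching letters in capitals. In the printed stretches Sdhd and Uqcr11 hold the ETS core and the others the NRF1 core. Over the whole windows Sdhd also has 1 NRF1 core, and Cox6a1 and Atp5h have 1 ETS core each. Sdha is shown beside Sdhd because both belong to complex II but only Sdhd was called higher in dKO. The stretches lie at chr4:123718203-123718352 (Ndufs5), chr13:74350281-74350308 (Sdha), chr9:50603850-50603909 (Sdhd), chr10:80406831-80406980 (Uqcr11), chr5:115348982-115349129 (Cox6a1) and chr11:115419963-115420112 (Atp5h), each on the minus strand.
Ndufs5: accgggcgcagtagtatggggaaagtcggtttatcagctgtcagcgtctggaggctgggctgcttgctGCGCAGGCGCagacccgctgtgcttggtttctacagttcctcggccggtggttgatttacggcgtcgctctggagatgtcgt
Sdha: ggaggggcgtgttGCGCAGGCGCagaat
Sdhd: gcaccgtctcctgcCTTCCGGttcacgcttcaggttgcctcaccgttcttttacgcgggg
Uqcr11: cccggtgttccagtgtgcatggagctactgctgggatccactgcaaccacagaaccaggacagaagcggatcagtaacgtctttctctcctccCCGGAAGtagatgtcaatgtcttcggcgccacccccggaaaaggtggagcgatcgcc
Cox6a1: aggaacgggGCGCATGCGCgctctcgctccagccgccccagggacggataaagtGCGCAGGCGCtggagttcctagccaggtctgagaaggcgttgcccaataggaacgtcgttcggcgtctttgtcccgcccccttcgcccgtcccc
Atp5h: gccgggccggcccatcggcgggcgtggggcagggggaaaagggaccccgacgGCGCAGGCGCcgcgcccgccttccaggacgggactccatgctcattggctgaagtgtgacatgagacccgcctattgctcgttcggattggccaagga

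The printed matches begin 162 and 117 bases before the RefSeq start in Cox6a1 and 55 bases before it in Sdha. Over the whole windows the NRF1 core occurred 2 times in Cox6a1, which was higher in every dKO library than in any WT library, and 3 times in Sdha, which did not separate the groups. Among members with a window, the 17 tested members with the NRF1 core had a median log2 difference of 1.82 between dKO and WT, and the 55 tested members without it 1.78. After removal of a trend with transcript length and GC content, described further on, the medians were 0.47 and 0.59. In that fit 5 of the 17 and 29 of the 55 were called higher (15.5% of all genes in it). The other letters did not show such a gap. With and without the YY1 core 6 of 11 and 28 of 61 were called higher there. For the ETS core these were 9 of 19 and 25 of 53, and for the E-box 4 of 7 and 30 of 65. None of these splits was tested. The contrast of Cox6a1 with Sdha above is on the deposited values. With the trend removed neither was called (0.47 and 0.16, limma adjusted p = 0.0939 and 0.577). A match is a description of letters and not a binding site.

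Values are normalised read counts, that is whole reads divided by a size factor of each library. Recovered reads numbered 22169673 to 53921402 per library. The targeted genes went against 2 labels. In WT Traf6 ran from 1935 to 3006, and it was 2474 in the library labelled Traf6 KO replicate 1. In WT Tet2 ran from 525 to 783, and it was 668 in the library labelled Tet2 KO replicate 1. It was 403 and 486 in Tet2 KO replicates 2 and 3, but 339 and 427 in Traf6 KO replicates 2 and 3. Tet2 values thus did not separate the single knockouts from each other. Traf6 was 1432 and 1776 in Tet2 KO replicates 2 and 3, below WT. Xist was 990.3 or more in every Tet2 KO and Traf6 KO library and 17.0 or less in WT and dKO, and the Y-linked gene Eif2s3y was 2812 or more in WT and dKO, so comparisons of a single knockout with WT or dKO also differ in sex chromosomes. The library labelled Traf6 KO replicate 1 had both kinds of reads, Xist at 1574 and Eif2s3y at 1524, where the other Traf6 KO libraries had Eif2s3y at 2.32 or less. Without it limma also called 0 members in Traf6 KO against WT. The dKO replicate 3 library stood apart, with a summed signal of 39973892 against 25557760 to 28916082 in the other 11 libraries. Summed markers of the LSK gate were 85828 to 108759 in dKO and 135298 to 151163 in WT, but the genes of the list did not move alike. Kit (CD117) was 4099 to 11935 in dKO and 44484 to 47837 in WT, Ly6a (Sca-1) 1968 to 13218 and 1990 to 2339, Cd34 40877 to 59383 and 37782 to 52709, and Flt3 11768 to 19755 and 10044 to 14503. Summed macrophage markers were 2690 to 5950 in dKO and 584 to 927 in WT, erythroid markers 13480 to 30307 and 1176 to 2217, and B cell markers 2309 to 35980 and 2051 to 2830. Most of the macrophage sum in dKO was Cd68 (1663 to 4952) and nearly all of the erythroid sum Car1 (12926 to 29981), while Alas2, a defining erythroid gene, was 0, 219 and 0 in dKO and 12.6 to 127 in WT. The highest B cell sum was mainly Igkc in dKO replicate 3 (28286). T and NK cell markers summed to 7371 to 49561 and 3419 to 4573, almost all from Nkg7, with Cd3e and Cd3g at 0 in every dKO and WT library. Mature neutrophil markers summed to 1065 to 6314 and 898 to 3337, and stromal and endothelial markers to 1235 to 3463 and 3680 to 4498. The part of these shifts in the results below was not tested, and in bulk libraries fewer cells of a type and less RNA per cell cannot be told apart.

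Respiratory chain genes were higher in dKO than in WT across all 5 complexes. Of the 87 members that passed the filter on low values (at least 10 in at least 3 libraries), 78 rose in dKO and 0 fell by limma at an adjusted p of 0.05 over all 14045 tested genes, where 21.9% of tested genes were called higher and 26.5% lower. The median log2 difference of the tested members was 1.78, and that of all tested genes was -0.09. By complex, 36 of 40 genes of complex I rose (median 1.78), 5 of 6 of complex II (median 1.29), 9 of 9 of complex III (median 1.82), 14 of 15 of complex IV (median 1.97) and 12 of 14 of complex V (median 1.79). The 78 also hold Atp5s and Atp5sl, which are not subunits and are counted in no complex. In 82 of the 87 members every dKO library lay above every WT library, which held for 27.9% of all tested genes. EdgeR called 78 members higher (22.1% of tested genes, with 24.5% lower) and DESeq2 82 (26.9%, with 26.3% lower). Without dKO replicate 3, the library that stood apart, 74 members rose and the median was 1.10. The share of all tested genes called in that fit is not given here. After removal of a trend with transcript length and GC content, described further on, 40 members rose and 1 fell, with a median of 0.58, where 15.5% and 11.3% of the genes in that fit were called higher and lower.

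The members together took 1.21%, 0.993% and 1.0% of the signal of the WT libraries, 0.990%, 1.26% and 1.44% of Tet2 KO, 1.24%, 1.54% and 1.13% of Traf6 KO, and 1.72%, 2.04% and 3.03% of dKO. The dKO libraries were thus the 3 highest of the 12. The single knockouts overlapped WT. The make-up of this signal also differed in dKO replicate 3, in which complex I gave 31.8% and complex IV 17.3% of the member signal, against 20.8% to 23.7% and 6.80% to 9.06% in WT, while complex V gave 31.3% against 41.6% to 46.3%. In dKO replicates 1 and 2 complex I gave 23.1% and 24.4% and complex V 43.1% and 40.7%.

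**Figure D1:**
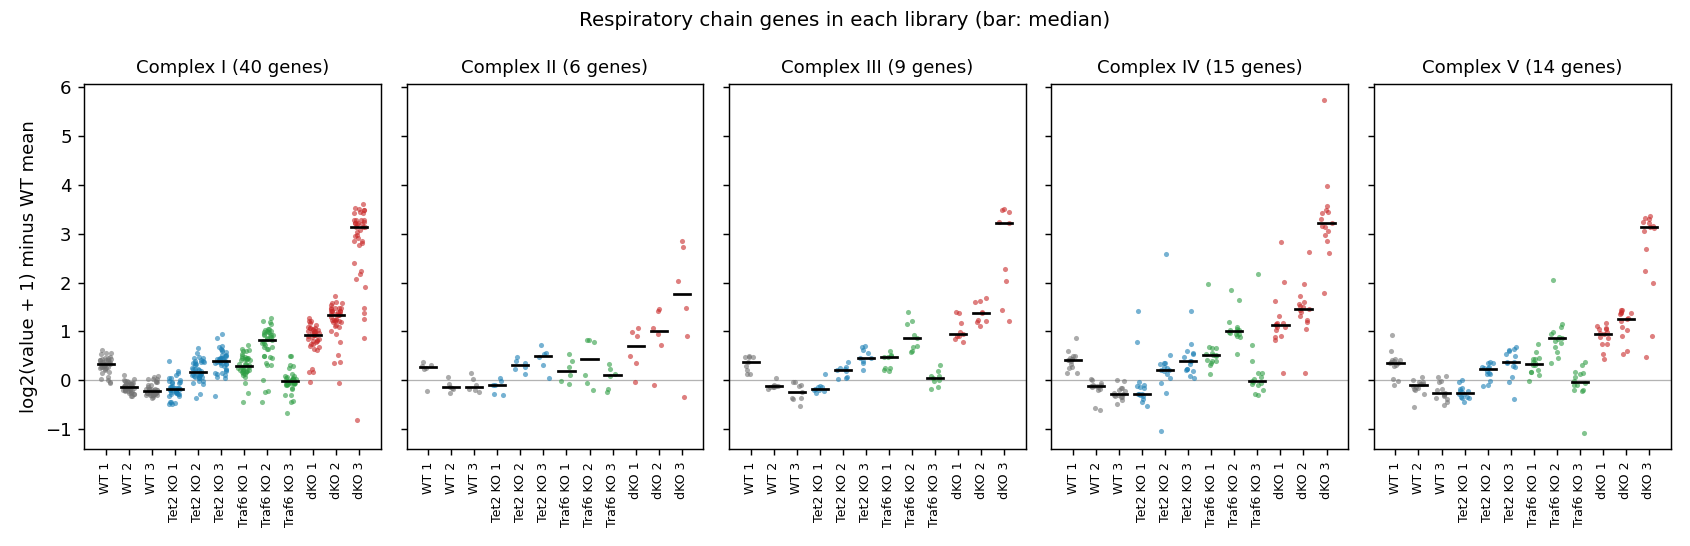
Each point is a tested member, plotted as log2(value + 1) minus its mean over the 3 WT libraries (vertical axis, log2 units) in each of the 12 libraries (horizontal axis), in a panel per complex, with black bars at the medians. The bars of dKO replicates 1 and 2 lie between 0.70 and 1.46, those of dKO replicate 3 between 1.76 and 3.22, and no bar of another library exceeds 1.01.

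No member was called in either single knockout, which with 3 libraries a group does not show that none changed. In Tet2 KO against WT 0 of 87 members were called in either direction by limma, where 0.107% of tested genes were called higher and 0.306% lower. The median log2 difference was 0.15. At an unadjusted p under 0.05 limma had 0 members (8.44% of tested genes), and edgeR and DESeq2 on the recovered reads called 0 (edgeR 0.0854% of tested genes higher and 0.221% lower, DESeq2 0.634% and 1.4%). In Traf6 KO against WT limma also called 0 members (0.0783% and 0.192% of tested genes), with 0 at an unadjusted p under 0.05 (7.8%), 0 by edgeR (0.057% and 0.142%) and 0 by DESeq2 (0.534% and 0.655%). After removal of the length and GC trend it also called 0 in each single knockout (0.19% of genes higher and 0.446% lower in Tet2 KO, 0.212% and 0.271% in Traf6 KO). On the deposited values 81 of 87 differences between Traf6 KO and WT were positive with a median of 0.41, and after removal of the trend 80 with a median of 0.25. Every Traf6 KO library lay above every WT library in 12 members (9.68% of tested genes) and below in 2 (11% of tested genes). The Traf6 KO libraries differed among themselves: the median member lay 0.33, 0.86 and -0.01 log2 units from the WT mean in replicates 1, 2 and 3. In Tet2 KO it lay -0.19, 0.22 and 0.39 from it.

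Complex I takes electrons from NADH. It is built from 7 nuclear core subunits, which hold the flavin and iron-sulfur clusters, accessory subunits around them, and assembly factors that leave the finished complex. Of the core subunits 6 of 7 rose in dKO, of the accessory subunits 27 of 29, and of the assembly factors 3 of 4. Ndufs1 (chromosome 1, 63143596 to 63176833), the largest core subunit, was the exception in the core. Its values in the WT libraries were 5210, 5196 and 5719, in Tet2 KO 5535, 5352 and 7708, in Traf6 KO 5830, 4564 and 5733. The dKO libraries had 6029, 5155 and 3061. The groups overlapped, and dKO replicate 3 was the lowest of the 12 libraries. The log2 difference between dKO and WT was -0.23 ± 0.26 (SE; limma adjusted p = 0.473), and it was 0.05 with dKO replicate 3 left out.

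Ndufv1 and Ndufv2 form the flavoprotein pair of the NADH-binding arm. Ndufv1 was 4638, 4677 and 4851 in WT and 9047, 9511 and 12290 in dKO. Ndufv2 was 5537, 3530 and 3602 in WT and 8413, 11447 and 29558 in dKO. Both rose without overlap, Ndufv1 by a log2 difference of 1.11 ± 0.24 (SE; limma adjusted p = 0.00329) and Ndufv2 by 1.78 ± 0.40 (adjusted p = 0.00383). After removal of the trend both were still called (0.59 and 1.28). The log2 ratio of Ndufv2 to Ndufv1 was 0.26, -0.41 and -0.43 in WT and -0.10, 0.27 and 1.27 in dKO, highest in dKO replicate 3 with overlap between the groups.

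Per length of transcript, Ndufb8 and Ndufb9, accessory subunits of the membrane arm, were the most abundant members of complex I over the 12 libraries. Ndufb8 was 2479, 1500 and 1538 in WT and 3784, 5335 and 14022 in dKO, and Ndufb9 was 3663, 2136 and 2071 in WT and 5538, 7000 and 22363 in dKO. Ndufa7, an accessory subunit, had the largest rise of the complex and was 1340, 779 and 717 in WT and 2097, 3018 and 10380 in dKO. In all 3 genes every dKO library was above every WT library and dKO replicate 3 was far above the other libraries. The log2 differences were 1.88 ± 0.41 (SE) for Ndufb8, 1.91 ± 0.45 for Ndufb9 and 2.15 ± 0.51 for Ndufa7, with limma adjusted p of 0.00355, 0.00500 and 0.00490. After that trend was removed they were 0.42, 0.48 and 0.57, and only Ndufa7 kept its call (adjusted p = 0.0459), which it lost without dKO replicate 2 or 3 (adjusted p = 0.116 and 0.0625). Part of the Ndufb8 and Ndufb9 sequence is also found in transcripts of another gene (13.5% and 23.4% of windows of 50 bases), so their reads are less certain.

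Accessory subunit Ndufa10 had the largest difference of complex I once the trend was removed. It was 3672, 3494 and 3724 in the WT libraries, 3611, 5726 and 7019 in those of Tet2 KO, 4387, 6419 and 5163 in those of Traf6 KO, and 8829, 9716 and 19094 in those of dKO, so the dKO libraries were the 3 highest. The log2 difference was 1.70 ± 0.31 (SE; limma adjusted p = 0.00131) and 1.43 with the trend removed (adjusted p = 0.00178). The accessory subunits not called were Ndufab1, the mitochondrial acyl carrier protein, and Ndufb2, and the assembly factor not called was Ndufaf3. Ndufab1 was 758, 507 and 519 in WT and 657, 762 and 1401 in dKO (log2 difference 0.60, adjusted p = 0.125). Ndufb2 was 747, 391 and 396 in WT and 480, 696 and 2039 in dKO (0.85, adjusted p = 0.141), and it was the 1 member called lower with the trend removed (-0.76, adjusted p = 0.0258). Ndufaf3 was 390, 398 and 326 in WT and 433, 472 and 2677 in dKO (1.14, adjusted p = 0.0938), a difference that lay mainly in dKO replicate 3.

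Complex II is succinate dehydrogenase, which also works in the citric acid cycle. Sdha carries the flavin, Sdhb the iron-sulfur clusters, and Sdhc and Sdhd anchor them in the membrane. Sdha (chromosome 13, 74322254 to 74350280) was 16264, 19571 and 20754 in the WT libraries, 17669, 24137 and 26023 in those of Tet2 KO, 17931, 18059 and 22156 in those of Traf6 KO, and 18308, 17572 and 14773 in those of dKO. The groups overlapped and the log2 difference between dKO and WT was -0.16 ± 0.20 (SE; limma adjusted p = 0.543).

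Sdhb (chromosome 4, 140961203 to 140979193) was 5333, 4055 and 4185 in the WT libraries, 3659, 5267 and 6523 in those of Tet2 KO, 5433, 7957 and 4898 in those of Traf6 KO, and 8937, 12008 and 29594 in those of dKO. Every dKO library was above the other 9, and the log2 difference to WT was 1.71 ± 0.38 (SE; limma adjusted p = 0.00355). The anchors rose too: Sdhc was 4135, 2960 and 3575 in WT and 6585, 7442 and 9847 in dKO (1.15 ± 0.25, adjusted p = 0.00299). Sdhd was 9181, 6250 and 6180 in WT and 14914, 19434 and 28924 in dKO (1.52 ± 0.29, adjusted p = 0.00176). All 3 calls remained with the length and GC trend removed, at 0.70 for Sdhb, 1.64 for Sdhc and 0.61 for Sdhd. That of Sdhd was lost in this fit without dKO replicate 1 or 2 (limma adjusted p = 0.0549 and 0.111) and with lengths of the longest transcript (0.43, adjusted p = 0.122). The assembly factors Sdhaf1 and Sdhaf2 also rose (1.43 and 0.66, adjusted p = 0.0318 and 0.0317).

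Ratios of subunits within the complex were compared by library. The log2 ratio of Sdhb to Sdha was -1.61, -2.27 and -2.31 in the WT libraries, -2.27, -2.20 and -2.0 in those of Tet2 KO, -1.72, -1.18 and -2.18 in those of Traf6 KO, and -1.03, -0.55 and 1.0 in those of dKO. The dKO libraries were the 3 highest. The ratios were not tested. Sdhc to Sdha, with transcripts of 3171 and 2900 nucleotides, went from a mean of -2.41 in WT to -1.10 in dKO.

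Complex III passes electrons from ubiquinol to cytochrome c. All 9 members rose. Of its catalytic nuclear subunits, Cyc1 (cytochrome c1) was 5104, 4389 and 4543 in WT and 8713, 10635 and 22619 in dKO, and Uqcrfs1 (the Rieske iron-sulfur protein) was 4251, 3420 and 3436 in WT and 7093, 8582 and 14964 in dKO. Neither gene's groups overlapped. The log2 differences were 1.45 ± 0.33 (SE; limma adjusted p = 0.00388) and 1.40 ± 0.29 (adjusted p = 0.00240), and 0.78 and 0.59 with the trend removed, where both stayed called.

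Uqcrc1 (chromosome 9, 108936633 to 108949623), a core protein of the matrix side, was the most abundant of the complex per length of transcript. It was 14784, 12426 and 13196 in the WT libraries, 11661, 17433 and 21529 in those of Tet2 KO, 16072, 20490 and 16753 in those of Traf6 KO, and 23187, 29047 and 36375 in those of dKO. The dKO libraries were the 3 highest and those of Traf6 KO all lay above WT, although only the dKO difference was called (1.11 ± 0.24, SE; limma adjusted p = 0.00341; 0.60 with the trend removed, a call lost there without dKO replicate 2, adjusted p = 0.108). The small subunits moved further on the deposited scale. Uqcr11 was 766, 563 and 380 in WT and 1443, 1680 and 6232 in dKO (2.17 ± 0.51, adjusted p = 0.00462), and Uqcr10 was 1561, 1035 and 864 in WT and 2533, 3600 and 12548 in dKO (2.12 ± 0.50, adjusted p = 0.00467). For both the call ended with the trend removed (0.50 and 0.48, adjusted p = 0.0990 and 0.0727).

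Complex IV, cytochrome c oxidase, hands the electrons to oxygen. Several of its nuclear subunits come in a widely expressed and a tissue-restricted form. Of the 20 members 15 were tested and 14 rose. Cox4i1 (chromosome 8, 120668222 to 120674207), the general form of subunit 4 and the most abundant member of the complex per length of transcript, was 6961, 4518 and 4320 in the WT libraries, 4266, 5984 and 7183 in those of Tet2 KO, 6856, 9903 and 5071 in those of Traf6 KO, and 11557, 15160 and 50626 in those of dKO. The dKO libraries were above the other 9, with replicate 3 more than any other value. The log2 difference was 2.01 ± 0.45 (SE; limma adjusted p = 0.00397), and 0.60 with the trend removed (adjusted p = 0.0290), a call lost there without dKO replicate 2 or 3 (adjusted p = 0.0615 and 0.0516). Cox4i2, the form known from lung and for its response to low oxygen, was low, with 29.1, 10.3 and 12.5 in the WT libraries, 10.5, 20.3 and 18.1 in those of Tet2 KO, 22.7, 37.1 and 26.6 in those of Traf6 KO, and 65.7, 102 and 147 in those of dKO. It rose by 2.59 ± 0.60 (adjusted p = 0.00432), with no call once the trend was removed (1.17, adjusted p = 0.0800).

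In the other isoform pairs the general form was higher than the restricted form in every library. Cox6a1, the general form, was 2102, 1641 and 1574 in WT and 3945, 4607 and 20832 in dKO. Cox6a2, the heart and muscle form, was 9.22, 3.43 and 5.77 in WT and 46.9, 13 and 356 in dKO. Both rose (2.04 ± 0.50 and 3.20 ± 1.0, SE; limma adjusted p = 0.00599 and 0.0189), and both calls ended with the trend removed (0.47 and 1.76, adjusted p = 0.0939 and 0.0924). Cox6a2 lost its call as well without dKO replicate 3 (1.94, limma adjusted p = 0.0803), without WT replicate 2 (adjusted p = 0.0665) and without WT replicate 3 (adjusted p = 0.0505). Cox6b1 was 2811, 1972 and 1667 in WT and 4636, 6060 and 19614 in dKO. Cox6b2, the testis form, was 273, 191 and 169 in WT and 638, 818 and 3256 in dKO. Both rose without overlap (1.97 ± 0.45 and 2.52 ± 0.57) and stayed called with the trend removed (0.49 and 0.90, limma adjusted p = 0.0464 and 0.0307). In that fit Cox6b1 lost its call without dKO replicate 1, 2 or 3 (adjusted p = 0.0567, 0.0991 and 0.0584) and with the longest transcript (adjusted p = 0.0892), and Cox6b2 without dKO replicate 2 or 3 (adjusted p = 0.0659 and 0.0558).

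Ndufa4, once counted with complex I, was 5000, 3474 and 3013 in WT and 6943, 9323 and 29408 in dKO, and rose by 1.73 ± 0.44 (SE; limma adjusted p = 0.00683), with 0.37 and no call when the trend was removed. The same held for Cox7a2 (1.63 and 0.18) and Cox8a (1.85 and 0.26), whereas Cox7b and Cox7a2l, a factor of supercomplex assembly, kept their calls (0.91 and 0.77). Cox7a2 also lost its call without WT replicate 3 (1.46, adjusted p = 0.0535). Cox7c was the 1 tested gene of the complex not called: it was 69.5, 51.4 and 35.6 in the WT libraries, 136, 24.2 and 52.3 in those of Tet2 KO, 80.04, 159 and 40.8 in those of Traf6 KO, and 56.3, 56.1 and 175 in those of dKO, with overlap between the groups and the highest of the 12 values in dKO replicate 3 (0.70 ± 0.71, adjusted p = 0.437). Of its 50-base windows 53.0% also occur in transcripts of other genes, so its count is uncertain. The muscle form Cox7a1 was 1.14 to 14.5 outside dKO and 9.38, 5.22 and 53.6 in dKO, too low for the filter. Cox8b and Cox8c were listed at 0 in all 12 libraries, which allows up to 3 reads per library. Cox7b2 was 1.42 in WT replicate 1 and at 0 in the other 11, and Ndufa4l2 was 6.52 and 1.79 in dKO replicates 2 and 3 and at 0 elsewhere.

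Ratios of subunits were level in 2 pairs of complex IV. The log2 ratio of Cox5b to Cox4i1, both essential subunits with short transcripts (865 and 745 nucleotides), was -3.38 ± 0.09 (SD, n = 3) in WT and -3.39 ± 0.14 in dKO, with -3.35 ± 0.11 in Tet2 KO and -3.39 ± 0.04 in Traf6 KO. Cox6b1 to Cox4i1 was -1.29 ± 0.09 in WT and -1.34 ± 0.03 in dKO. In these pairs the groups differed by less than the spread between libraries, while each gene by itself rose. The mean log2 ratio of Uqcrq to Uqcrc1 in complex III, transcripts of 405 and 1653 nucleotides, was 1.03 higher in dKO than in WT. It was -3.64, -4.02 and -4.32 in WT and -3.41, -3.50 and -1.98 in dKO. That of Ndufs8 to Ndufs1 in complex I (983 and 2590 nucleotides) was 2.12 higher, with -0.62, -1.36 and -1.39 in WT and -0.32, 0.42 and 2.89 in dKO. In both pairs the groups did not overlap, but dKO replicate 3 lay far above the other dKO libraries.

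**Figure D2:**
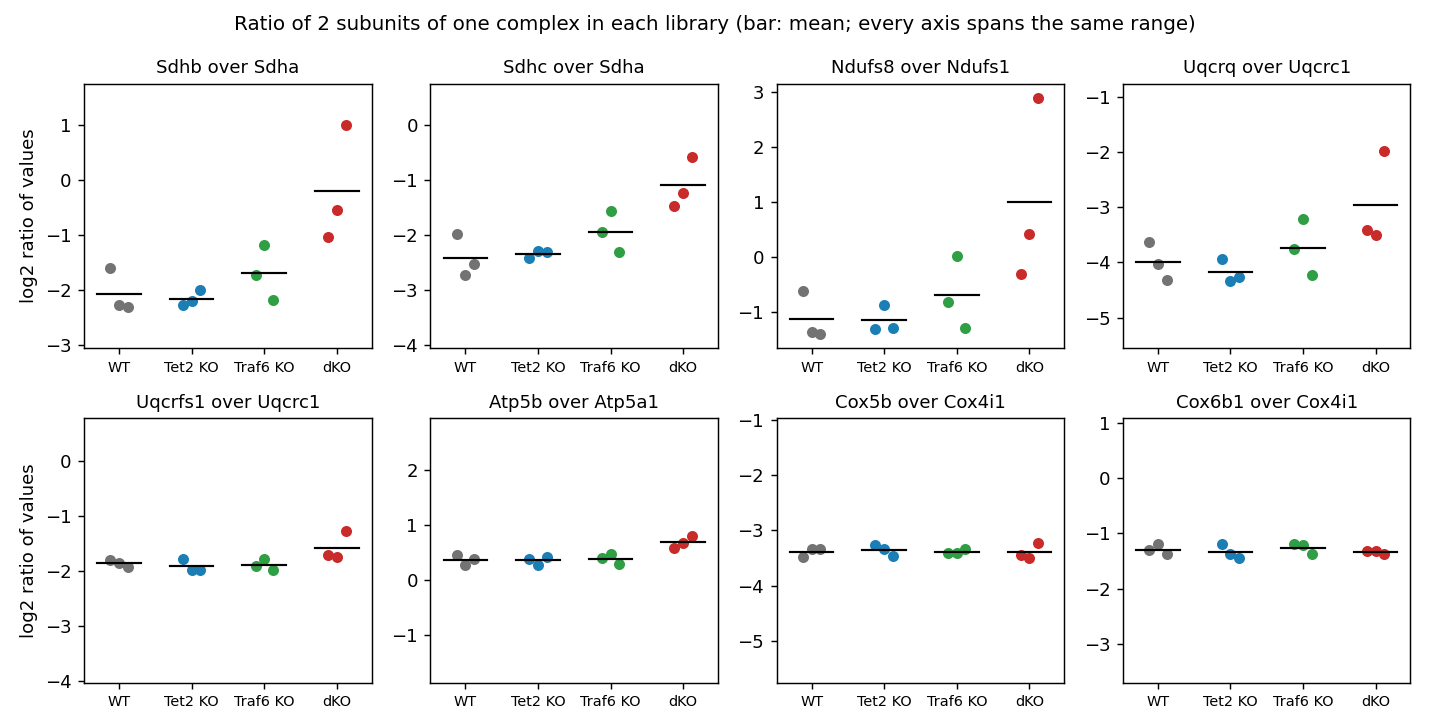
Points give the log2 ratio of the values of 2 subunits of the same complex (vertical axis, every panel spanning the same range) in each library of the 4 genotypes (horizontal axis), and bars give the means of 3 libraries. Sdhb over Sdha shifts from a mean of -2.06 in WT to -0.19 in dKO, while Cox5b over Cox4i1 and Cox6b1 over Cox4i1 stay level.

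Complex V makes ATP. Its F1 head holds the catalytic beta subunit (Atp5b) and the alpha subunit (Atp5a1), and the Fo part holds the ring of c subunits (Atp5g1, Atp5g2 and Atp5g3) and the stalk. Of the F1 subunits 5 of 5 rose, and of the tested Fo and stalk subunits 7 of 9. Atp5b (chromosome 10, 128083273 to 128090391) was the most abundant of the 94 members per length of transcript. It was 53393, 50806 and 56796 in the WT libraries, 46393, 63966 and 78414 in those of Tet2 KO, 62113, 73826 and 66243 in those of Traf6 KO, and 90236, 100501 and 100297 in those of dKO. The dKO values lay close together and above the other 9, and unlike most members dKO replicate 3 did not stand out. The log2 difference was 0.85 ± 0.20 (SE; limma adjusted p = 0.00425), with 0.49 and no call once the trend was removed (adjusted p = 0.0702).

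Atp5a1 was 38873, 41835 and 43787 in the WT libraries, 35408, 52982 and 58648 in those of Tet2 KO, 46881, 53158 and 54126 in those of Traf6 KO, and 60587, 62999 and 57782 in those of dKO. It had the smallest rise of the complex, 0.54 ± 0.20 (SE; limma adjusted p = 0.0361), and 0.60 with the trend removed (adjusted p = 0.0344; 0.0994 there without dKO replicate 2). With edgeR the adjusted p was 0.0649, with equal library totals 0.295 (0.29), and leaving out WT replicate 1, 2 or 3 or dKO replicate 2 gave 0.0693 to 0.0971. Atp5o, the stalk subunit known for oligomycin sensitivity, had the largest rise of the complex: it was 2717, 1871 and 1660 in WT and 4581, 5515 and 19940 in dKO (1.97 ± 0.46, adjusted p = 0.00493; 0.66 with the trend removed, a call lost there without dKO replicate 3, adjusted p = 0.0617). A share of 35.5% of its windows also occurs in other genes.

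The c subunit of the ring is the same mature protein from each of its genes, which differ in their targeting peptides. Atp5g3 was 5824, 3924 and 4612 in the WT libraries, 4041, 5411 and 7150 in those of Tet2 KO, 6522, 8526 and 5298 in those of Traf6 KO, and 10210, 11428 and 44117 in those of dKO. Every dKO library was above the other 9 (1.87 ± 0.45, SE; limma adjusted p = 0.00527), and the call ended with the trend removed (0.47, adjusted p = 0.0773). Atp5g1 was 55.8 to 106 in WT and 107, 116 and 516 in dKO (1.22 ± 0.58, adjusted p = 0.0987), and had -0.31 with the trend removed. It was called with DESeq2 (1.61, adjusted p = 0.0193), without dKO replicate 1 (1.62, limma adjusted p = 0.0406) and with the trend removed by the longest transcript (2.08, limma adjusted p = 0.0270). Atp5g2 was 0.962 to 6.96 outside dKO and 4.69 to 16.1 in dKO and was not tested. Of the 50-base windows of Atp5g1 and Atp5g2, 66.0% and 100% occur in transcripts of other genes, pseudogenes among them, so their low values are uncertain and the share of the 3 genes in the ring cannot be read from them. The Fo subunit Atp5l, not called at 1.69 ± 0.89 (adjusted p = 0.132), shared 68.5% of its windows.

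**Figure D3:**
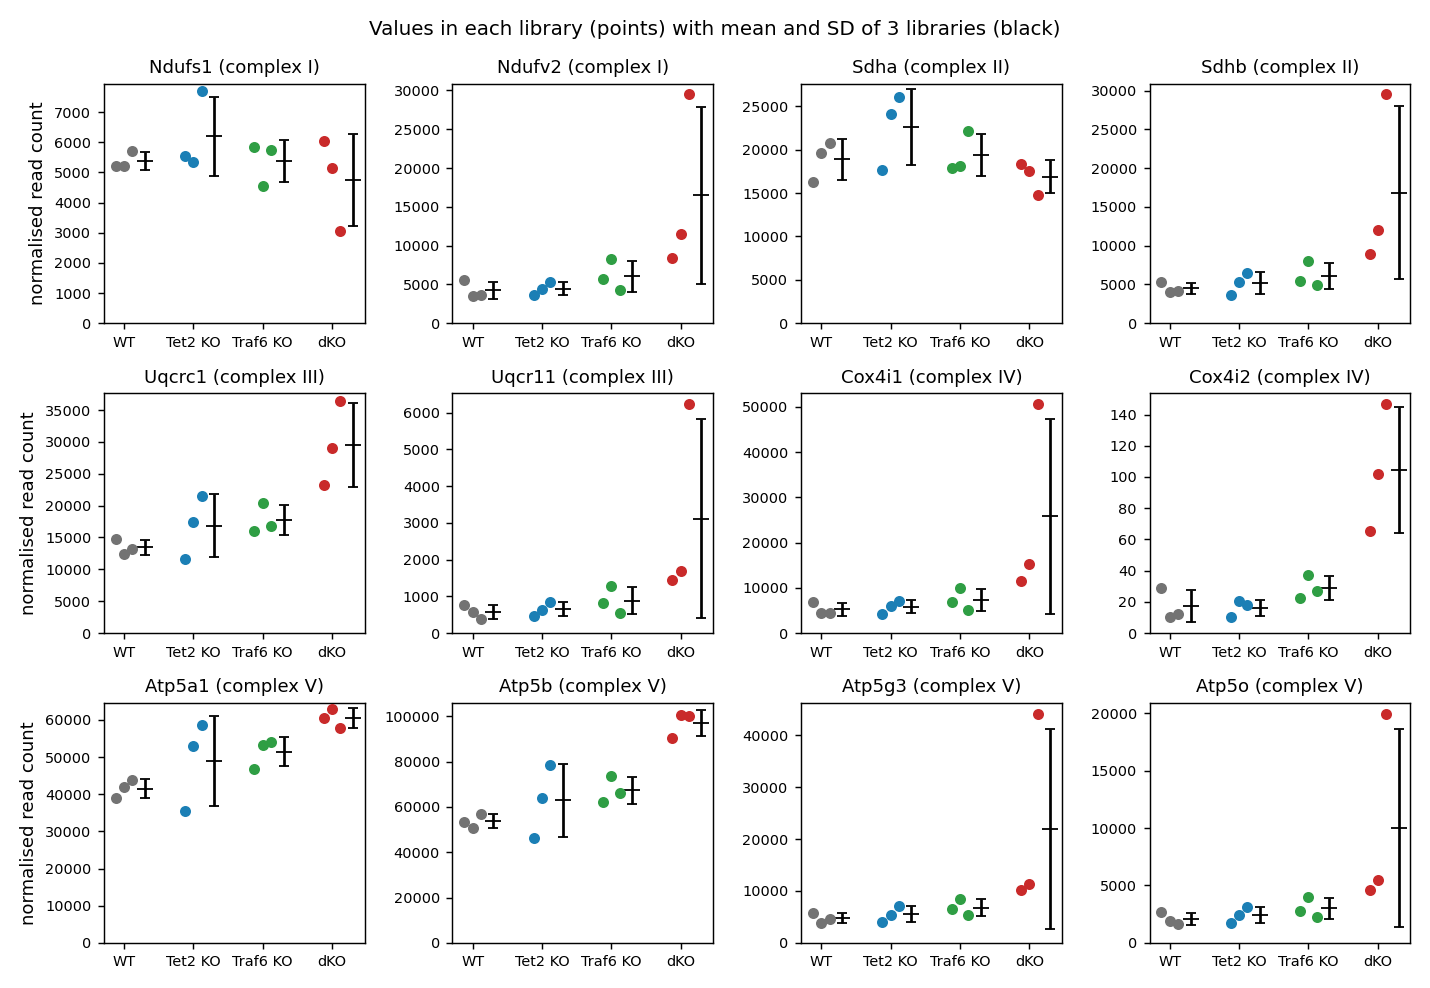
Points give the normalised read count (vertical axis, from 0) of 12 respiratory chain genes in each library of the 4 genotypes (horizontal axis), and black bars give the mean and SD of 3 libraries. Ndufs1 and Sdha overlap between all groups, Atp5a1 and Atp5b are higher in all 3 dKO libraries than in WT with little spread, and in Ndufv2, Sdhb, Uqcr11, Cox4i1, Atp5g3 and Atp5o dKO replicate 3 lies far above the rest.

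Transcript length went along with these differences. The median principal transcript of the tested members was 861 nucleotides, against 2691.5 for all tested genes with a length, and 58.6% of tested members but 9.57% of tested genes had one of up to 1000 nucleotides. In dKO replicates 1, 2 and 3 the 1258 other genes of up to 1000 nucleotides had medians of 0.75, 1.15 and 2.82 log2 units above the WT mean, and the 51 members of that length 1.02, 1.40 and 3.23. Above 1000 and up to 2000 nucleotides the medians were 0.49, 0.83 and 1.41 for 3224 other genes and 0.86, 1.23 and 2.24 for 26 members. Above 2000 and up to 4000 nucleotides they were -0.06, -0.24 and -0.53 for 5459 other genes and 0.55, 0.78 and 0.90 for 9 members, so at that length the members lay above WT in libraries where the median gene lay below it. Across the 87 tested members Spearman's rho between length and the dKO difference was -0.67, and across all 13676 tested genes with a length -0.66. These are values across genes of the same libraries, which are not independent. In Tet2 KO rho was 0.37 over the members and -0.38 over all tested genes. Whether RNA quality or amplification differed between the libraries was not tested.

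**Figure D4:**
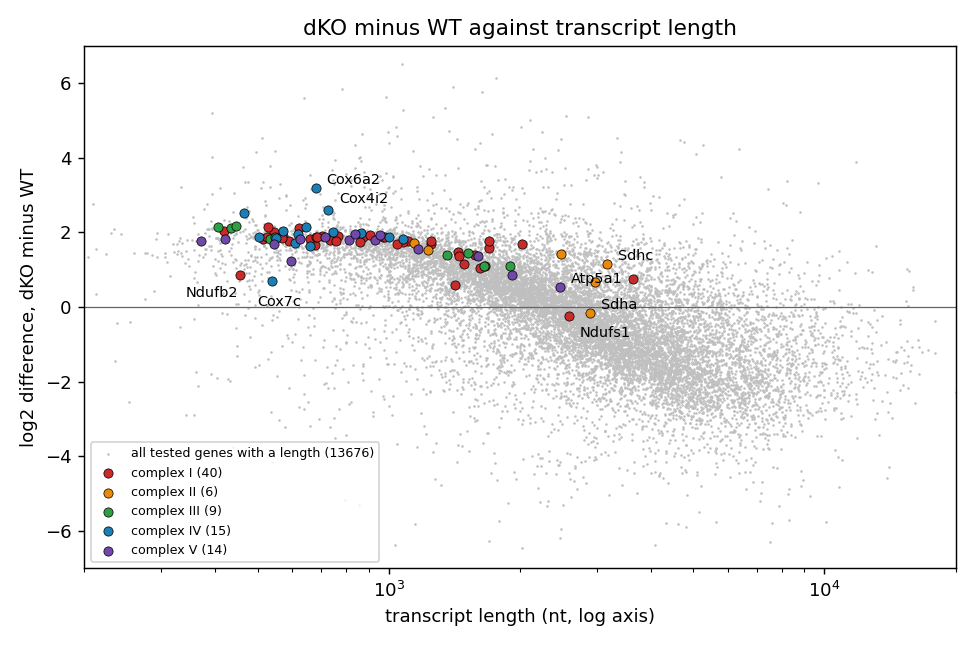
The log2 difference between dKO and WT (vertical axis) is plotted against transcript length (nucleotides, log axis) for all tested genes with a length in grey and for the tested members of the 5 complexes in colour, with 53 genes outside the axes. Short genes lie above 0 and long genes below it, most members lie inside the band of short genes near 2, and Ndufs1 and Sdha lie just under 0 among longer genes.

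The fit with the length and GC trend taken off each library therefore gives a reading of the members against genes of like length and composition. In it 40 members rose in dKO against WT, 39 of them among the 78 called on the deposited values, and 82 of 87 differences were positive. By complex 17 genes of complex I rose, 5 of complex II (6 tested), 4 of complex III, 7 of complex IV and 5 of complex V, with medians of 0.53, 0.83, 0.50, 0.60 and 0.48. Counts by complex leave out Cox4nb, Atp5s and Atp5sl, which are outside the chain. Complex II, whose members have longer transcripts, had the lowest median of the complexes on the deposited values and the highest here. Leaving out dKO replicate 1, 2 or 3 in this fit gave 41, 27 and 25 members called higher. Without the shares of all genes called, which are not given here, these counts cannot be read as a trait of the members. Of the genes named by rule, Sdhb, Sdhc, Cox7b and Cox7a2l stayed called in each of these fits, with the replicate block and with the longest transcript. The largest differences in it among subunits and assembly factors called were those of Sdhc (1.64), Sdhaf1 (1.5), Ndufa10 (1.43), Ndufv2 (1.28) and Ndufaf4 (1.27). Cox4nb, the gene outside the chain with a transcript of 4942 nucleotides, had 2.03 in this fit and 0.76 with no call on the deposited values.

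**Figure D5:**
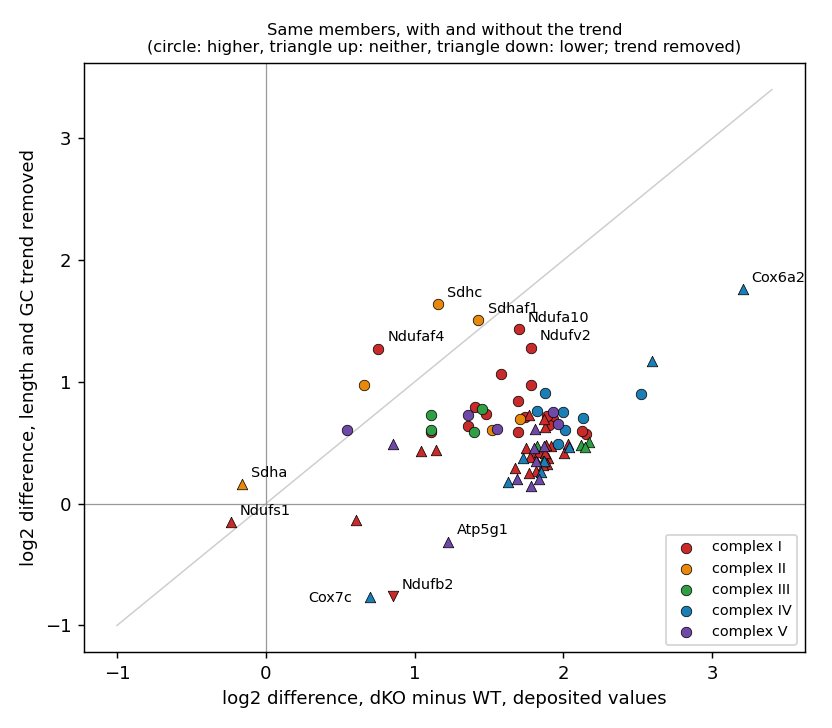
Each tested gene of complexes I to V is plotted by its log2 difference between dKO and WT on the deposited values (horizontal axis) and after removal of the length and GC trend (vertical axis), with circles for genes called higher in the second fit and triangles for the others. Most points near 2 on the horizontal axis lie between 0 and 1 on the vertical one, while Sdhc, Sdhaf1, Sdhaf2, Ndufaf4 and Atp5a1 have larger values after removal than before.

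Set against the single knockouts the dKO libraries were also higher. These comparisons share the dKO libraries with the one above and so do not repeat it independently. Against Tet2 KO 71 members rose and 0 fell (15.5% and 19.9% of tested genes), with a median of 1.68. Against Traf6 KO 74 rose and 0 fell (17.3% and 20.7%), with a median of 1.37. Both counts rested on single libraries. Leaving out the library labelled Tet2 KO replicate 1 took the 71 to 1. The 74 went to 0 without Traf6 KO replicate 3, to 2 without the library labelled Traf6 KO replicate 1 and to 10 without dKO replicate 3. Fitted on the 2 groups alone both were 0. The shares of all tested genes called in these fits are not given here, so the drops cannot be read as a trait of the members. The medians were 1.01 and 0.75 without dKO replicate 3. Without each library in turn they were 1.01 to 2.06 against Tet2 KO and 0.75 to 1.78 against Traf6 KO. With the trend removed 20 and 5 members rose (7.63% and 7.03% of the genes in that fit) and 0 fell (5.51% and 8.92%), with medians of 0.52 and 0.29. The 5 against Traf6 KO were Sdhc, Sdhaf2, Ndufa10, Ndufaf4 and Cox4nb.

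The interaction is the dKO difference to Tet2 KO minus the Traf6 KO difference to WT. By the labels it asks whether the loss of Traf6 had another effect without Tet2 than with it. Both of its parts compare libraries with high and low Xist, in opposite directions, so a difference by sex chromosomes does not cancel. Genotype and sex chromosomes cannot be told apart in it. Limma called 0 of 87 members in it (0.107% of tested genes higher and 0.114% lower), with 15 at an unadjusted p under 0.05, all positive, against 18.6% of all tested genes at that level. EdgeR called 0 (0.0854% and 0.107% of tested genes), DESeq2 0 (0.498% and 1.12%, with no adjusted p for 4 members), and the fit with the trend removed 0 (0.117% and 0.139%). The median was 1.23 and 83 of 87 values were positive. It was 0.30 with the trend removed and 0.60 without dKO replicate 3. The smallest p belonged to Ndufaf2, an assembly factor of complex I (1.58 ± 0.61, SE; limma adjusted p = 0.247). Without dKO replicate 1, 11 members were called higher, with the share of all tested genes in that fit not given here. A difference between the effects is thus not shown at this depth of replication, nor is its absence.

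Genes around the chain were followed as 3 further lists. Among assembly factors outside the symbol rule, 12 of the 24 tested rose in dKO and 1 fell (median 0.85), against 21.9% and 26.5% of all tested genes. With the trend removed 7 rose and 1 fell, against 15.5% and 11.3%. Higd2a and Higd1a, factors of complex IV and supercomplexes, rose by 1.86 and 1.44 (adjusted p = 0.0106 and 0.0176), Cox10, which makes heme A, by 1.2 (adjusted p = 0.00697), and Lrpprc, which stabilises mitochondrial messenger RNA, fell by 1.82 (adjusted p = 0.00317). Lrpprc was 4523, 5399 and 5100 in WT and 3123, 1233 and 729 in dKO. Its fall was also called with the trend removed (-0.84, limma adjusted p = 0.0493), a call lost there with the replicate block added.

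Of 19 tested genes of the citric acid cycle, pyruvate dehydrogenase and cytochrome c, 9 rose and 1 fell (median 0.63; 21.9% and 26.5% of all tested genes), and with the trend removed 7 rose and 0 fell (15.5% and 11.3%). Mdh2 (malate dehydrogenase) was 10737, 9647 and 10491 in WT and 21966, 25019 and 47543 in dKO, with a log2 difference of 1.53 and an adjusted p of 0.00201. Fh1 (fumarase), the enzyme after succinate dehydrogenase, rose by 0.99 (adjusted p = 0.00303) and by 1.12 with the trend removed. Ogdh, the first subunit of the oxoglutarate dehydrogenase complex, fell by 1.63 (adjusted p = 0.00536), with -0.55 and no call when the trend was removed. Citrate synthase (Cs) had -0.30 and no call.

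Among 15 tested factors of mitochondrial transcription, replication and biogenesis 3 rose and 5 fell (median -0.03), shares near the 21.9% and 26.5% of all tested genes. With the trend removed 3 rose and 3 fell, against 15.5% and 11.3%. Tfam, which packages mitochondrial DNA, rose by 0.75 (adjusted p = 0.0174) and Ssbp1, the mitochondrial single-strand binding protein, by 1.90 (adjusted p = 0.00324). The third to rise was Yy1 (0.62, adjusted p = 0.0293). Gabpa, the ETS factor named above, was 3337, 4011 and 4190 in WT and 2115, 1073 and 920 in dKO, and fell by 1.58 (adjusted p = 0.00146; -1.77 with the trend removed). Nrf1 had -0.34 and no call (adjusted p = 0.249). Polg, the mitochondrial DNA polymerase, and Pprc1, a coactivator of these genes, fell by 2.52 and 2.44, and both stayed called with the trend removed (-0.77 and -0.96). Limma called 0 genes of the 3 lists in each single knockout. At an unadjusted p under 0.05 it had 0 in Tet2 KO. In Traf6 KO it had 2, 0 and 2 for assembly factors, citric acid cycle and biogenesis factors.

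Of the 94 members 7 did not pass the filter: Atp5g2, Atp5l2, Cox7a1, Cox7b2, Cox8b, Cox8c and Ndufa4l2. Of the genes outside the chain, Atp5s and Atp5sl rose (1.01 and 0.85, adjusted p = 0.0183 and 0.00968), and Atp5l2 was 3.57 or less in every library. More than 20% of windows were shared with other genes in 18 of the 94 members, and no window in 54. The members Ndufa1, Ndufb11 and Cox7b lie on the X chromosome, and all 3 rose in dKO against WT, the comparison in which the libraries did not differ in Xist.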

How the data were processed

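RNA of 12 libraries was measured. The authors deposited 1 table of normalised signal per gene, whole reads divided by a library's size factor. Per the submitters' processing notes, the tools were STAR, featureCounts, bcl2fastq and DESeq2 and the build mm10 or GRCm38. Their versions and the strand setting are not given in the sources used here. Division by each library's smallest value above 0 gave whole reads for 100% of values (tolerance 1e-06).

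The members and lists were chosen with earlier results of these data known. Groups were compared with limma 3.58.1 (R 4.3.3; trend and robust moderation) on log2(value + 1), with all 12 libraries as 4 groups, genes at 10 or more in at least 3 libraries, Benjamini-Hochberg adjustment over all 14045 tested genes and a threshold of 0.05. This scale makes the changes of low genes look smaller than they are. Because the values are normalised, edgeR 4.0.16 and DESeq2 1.42.0 on the recovered reads were alternatives. For the trend removal a loess of log2 values on log2 transcript length and GC content (GENCODE M21, principal coding transcript; 97.4% of tested genes) was taken off each library. Other alternatives were a pseudocount of 5, no filter, equal library totals, the 2 groups alone, a replicate block and each library left out, and, added after the data were seen, the longest transcript of any kind and the trend removal without each dKO library. The fit was tested on simulated data.

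Genes were named by rule: in each complex the 2 most abundant per length of transcript and the extremes of the dKO difference, isoform families, succinate dehydrogenase, members called in a single knockout or the interaction, and members not tested. All other members, the genes of the other lists and the printed promoters were chosen after their values were seen. Limits given for 0 reads cover counting error only, since PCR copies are not independent molecules.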

Additional observations from a re-analysis of the deposited data

How the results depend on the processing

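The call of no member in either single knockout was the same under all alternatives run. In dKO against WT the members called higher numbered 78 with the pseudocount of 5, the replicate block and edgeR's test, 82 with DESeq2, 75 without a filter and with equal library totals, 68 with the 2 groups alone and 68 to 83 without each library in turn. Equal library totals moved the median of all tested genes by -0.34. With the length and GC trend removed 40 members were called higher and 1 lower, with the replicate block added 41 and 1, with the longest transcript 39 and 0, and without dKO replicate 1, 2 or 3 in that fit 41, 27 and 25 higher and 1, 1 and 0 lower. The cause was not tested beyond these fits. For fits that leave out a library or use the 2 groups alone, shares of all tested genes are not given.

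Against Tet2 KO the count called higher was 0 with the 2 groups alone, 20 with the trend removed, 17 with the replicate block added, 25 with the longest transcript and 1 to 78 without each library; equal library totals called 1 lower. Against Traf6 KO it was 30 without a filter, 0 with the 2 groups alone, 5 with the trend removed, also with the replicate block, 10 with the longest transcript and 0 to 79 without each library. The interaction had 0 to 11. With the replicate block alone the counts were 70 against Tet2 KO and 65 against Traf6 KO.

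Among assembly factors the count called higher was 7 with the trend removed, 5 with the replicate block added and 5 with the longest transcript, and 6 to 15 without each library; that called lower was 0 with the trend removed and the replicate block, and 1 to 2 without each library. In the citric acid cycle list those called lower numbered 0 with the trend removed, with the replicate block added and with the longest transcript, and 1 to 4 without each library, and those called higher 7 to 10. Biogenesis factors called higher numbered 1 with equal library totals and with the 2 groups alone, and 1 to 4 without each library; those called lower 3 with the trend removed, with the block added and with the longest transcript, and 4 to 5 without each library.

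Of the genes named by rule the sign of the difference between dKO and WT turned in Atp5g1, Cox7c, Sdha and Ndufs1. None of these was called by limma on the deposited values of all 12 libraries. Of the other tested members the sign turned in Ndufab1 (-0.13) and Ndufb2 (-0.76) with the trend removed. Atp5g1 had -0.31 with the trend removed, with and without the replicate block, and -0.33, -0.21 and -0.40 in that fit without dKO replicate 1, 2 and 3, but 2.08 and a call (limma adjusted p = 0.0270) with the longest transcript. Cox7c had -0.76 (-0.50 with the longest transcript; -0.88, -0.69 and -0.72 without dKO replicate 1, 2 and 3). Sdha had 0.16 (0.18, 0.094 and 0.20 without dKO replicate 1, 2 and 3). Ndufs1 had -0.43 to 0.054 without each library in turn, above 0 only without dKO replicate 3, and 0.13 when the trend was removed as well. No pairing of the libraries by replicate number was seen. Of 18 pairs with the same number in different groups 3 had a correlation of deviations over 0.1 (range -0.18 to 0.19). A library correlated best with its own number in 9 of 36 checks. With 3 libraries a group this check does not show that pairing was absent. With 3 libraries a group, differences within the wide spread of the dKO libraries are not detectable.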
